A study of Caenorhabditis elegans with 22 samples.

Results

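The small RNA of Caenorhabditis elegans mutants that lack both ADAR genes and the helicase gene eri-6 was read in a table of 381 genes that the authors selected and deposited. The table gives these genes in 2 libraries of the triple mutant GR1744, which is adr-1 eri-6;adr-2 with the alleles gv6, mg379 and gv42, and in 2 wild-type libraries. The first wild-type library came from GR1831, which carries the transgene mgIs30, and the second from N2. The 381 genes are members of a set of 46780 genes that were measured in full for the single-pathway mutants. Those are adr-1;adr-2, with BB4 (gv6 and gv42) as replicate 1 and BB21 (tm668 and ok735) as replicate 2, and eri-6 (GR1814, mg379) in both replicates. All animals were whole young adults carrying embryos, taken 70 h after L1 arrest and grown at 20 °C, and small RNA of 18 to 28 nt was sequenced after removal of 5′ polyphosphates. Total RNA was read in N2, GR1814, GR1744 and an adr-1;adr-2 strain whose label pairs the name BB4 with the alleles tm668 and ok735. Polyadenylated mRNA was read in 1 library each of N2 and GR1744 fed control (L4440), drh-1 or nrde-3 RNAi bacteria.

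ADARs are enzymes that turn adenosine into inosine in double-stranded RNA. In the worm ADR-2 is the active deaminase and ADR-1 is a partner that binds RNA and shapes which sites are edited. ERI-6/7 is a helicase, joined by trans-splicing, that is needed for the endogenous siRNAs bound by the Argonaute ERGO-1. The secondary siRNAs that follow from them are carried to the nucleus by the Argonaute NRDE-3, and DRH-1 is a worm relative of the RIG-I sensor that takes part in antiviral RNAi. Both pathways meet on double-stranded RNA, and small RNA antisense to a gene is known to lower its transcript.

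Of the 381 members, 280 had more small RNA and 101 had less in adr-1 eri-6;adr-2 than in wild type, by the mean difference in log2(normalised reads + 1). Both mutant libraries lay above both wild-type libraries for 275 members and below both for 89, and for the other 17 the libraries overlapped. The median difference was 2.33 for the members that were higher and -2.59 for those that were lower, and the range ran from 8.16 to -9.58. Since the authors chose the genes with this contrast at hand, these values describe the selection and carry no test. The sources used here do not state the criterion. The table itself is ordered in 2 blocks. In the first 240 genes the ratio of mutant to wild-type small RNA rises from gene to gene, and total RNA was lower in the mutant for 205 of the 215 with a value. Among the remaining 141 genes total RNA was higher for 116 of 118. The total RNA of the triple mutant is therefore bound up with the arrangement of the table and is also given without a test. Whole reads were recovered from the normalised values, and 1 read was worth 0.528 and 1.12 in the triple mutant libraries and 1.05 and 1.67 in wild type. The members held 277693 to 740064 reads per library, and libraries of the full tables held 10904105 to 32303754. Replicates 1 and 2 differed in depth, and in wild type and adr-1;adr-2 also in strain. Nothing in the labels says that they are separate cultures, so every p-value measures only the spread between these samples.

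Of the 377 members with an entry in the reference annotation (RefSeq, WBcel235), 327 were protein coding, 16 were pseudogenes, 16 were ncRNAs and 7 were lncRNAs. Protein-coding genes made up 86.7% of members, and 55% of the annotated genes that average 10 or more normalised reads in the adr-1;adr-2 table. Those annotated genes include 33.8% piRNA loci, which were 0.531% of members, so the protein-coding shares are not like for like. Among protein-coding members 26.6% were on chromosome V and 20.2% on X, beside 18.1% and 11.3% of the protein-coding genes tested there. The sources used here do not state the strand used in counting, so reads of overlapping genes cannot be told apart.

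The largest gains were at genes with little small RNA in wild type. F39E9.1, a pseudogene on chromosome II, positions 3318302 to 3320358, had 8471 and 16046 normalised reads in the triple mutant and 8.36 and 176 in wild type (means 12259 ± 5356 and 92 ± 118, SD, n = 2), a difference of 8.16. Its neighbour Y46D2A.2 had 8750.5 and 14357 against 11.5 and 194, a difference of 7.83. At both genes the mutant libraries were far above the wild-type libraries, and wild-type replicate 2 was well above replicate 1. chil-22, of the chitinase-like family, had 331 and 356 against 2.09 and 5.02 (difference 6.32). pmp-2, a peroxisomal ABC transporter, had 810.2 and 614 against 6.27 and 13.4 (difference 6.11), and T05E12.6 had 658 and 616 against 9.41 and 8.36 (difference 6.01). None of these mutant libraries overlapped wild type.

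Between Y46D2A.2 and chil-22 in size was Y105C5A.24 (difference 6.80), which was high in BB4 and not in BB21 and is described with the strains. The other 5 were high in both adr-1;adr-2 libraries. All adr-1;adr-2 and eri-6 values beside the triple mutant are rescaled so that the wild-type libraries, which all 3 tables share, match. F39E9.1 had 12921 and 27137 normalised reads in adr-1;adr-2 and 16.1 and 19.2 in eri-6. pmp-2 had 1109 and 749 in adr-1;adr-2 and 12.9 and 13.3 in eri-6, and chil-22 had 252 and 568 and 1.07 and 5.91. The eri-6 libraries stayed near the wild-type level for all 3. Others of the 15 highest with this pattern were C25F9.5 (difference 5.09 in the triple mutant, 5.64 in adr-1;adr-2, 0.22 in eri-6), R12C12.7 (4.92, 4.30 and -0.39) and F39G3.2 (4.85, 5.28 and 0.08). acox-1.1, an acyl-CoA oxidase of peroxisomal fat breakdown, had 846 and 569 normalised reads against 14.6 and 35.1 in wild type and was intermediate in eri-6 (differences 4.87, 4.85 and 2.24).

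**Figure D1:**
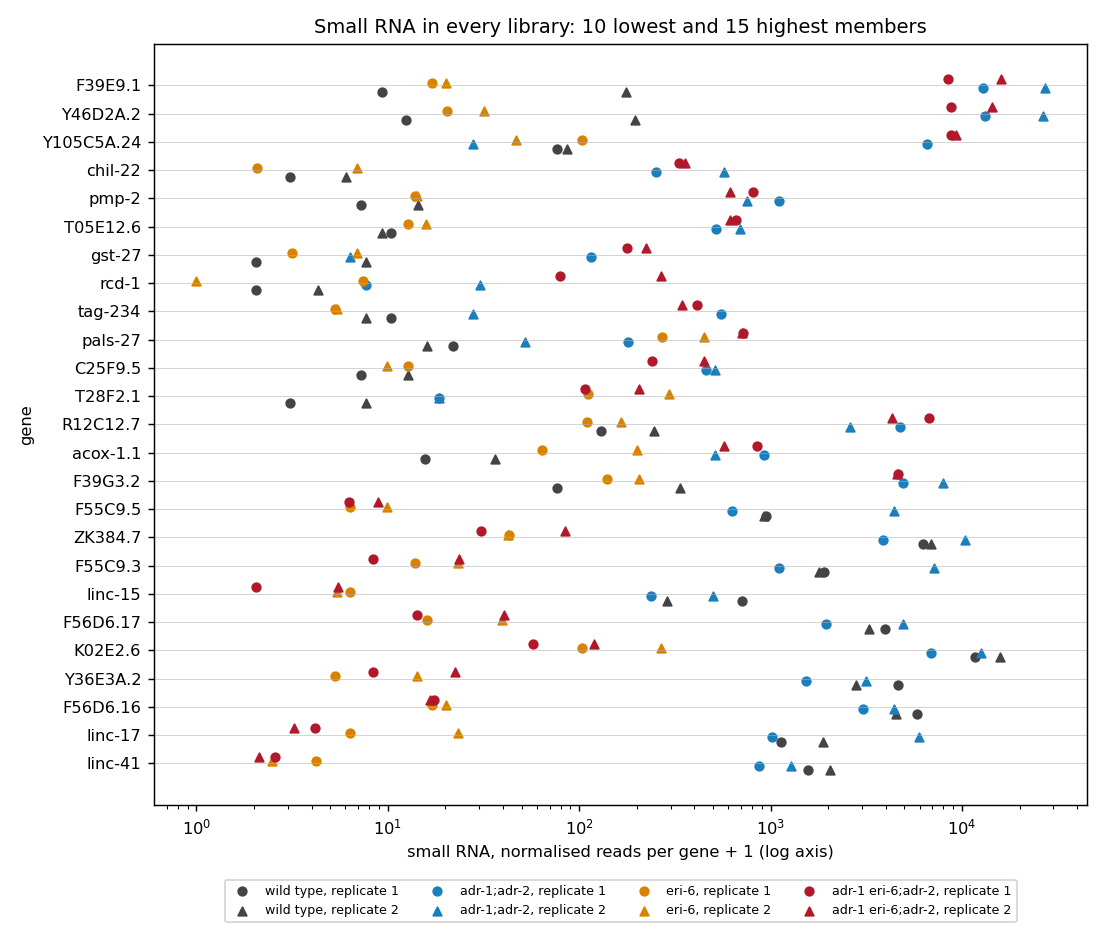
Normalised small RNA reads + 1 per gene (log axis) in each library of the 4 genotypes for the 10 members with the lowest and the 15 with the highest difference in adr-1 eri-6;adr-2; colours are genotypes, circles replicate 1 and triangles replicate 2, and adr-1;adr-2 and eri-6 values are rescaled so that the shared wild-type libraries match. The red triple mutant points of the lowest genes lie near the orange eri-6 points, which are the higher ones at linc-17. Those of most of the highest genes lie with the blue adr-1;adr-2 points.

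A second set of gains was high in eri-6 instead. T28F2.1 had 106 and 204 normalised reads in the triple mutant and 2.09 and 6.69 in wild type, with 17.5 and 17.4 in adr-1;adr-2 but 111 and 292 in eri-6. The triple mutant and eri-6 ranges overlap, and adr-1;adr-2 lies between them and wild type. pals-27, of a family whose members include genes of the intracellular pathogen response, had 719 and 707 against 20.9 and 15, with differences of 5.25 in the triple mutant, 2.36 in adr-1;adr-2 and 4.20 in eri-6. It is the one member among 38 measured pals genes. C18B2.4 was higher by 2.89 in the triple mutant and by 2.92 in eri-6, and differed by -1.97 in adr-1;adr-2.

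A few members were higher in the triple mutant than in either single-pathway mutant. With all tables rescaled to the shared wild-type libraries, both triple mutant libraries exceeded all 6 others by at least 2-fold on reads + 1 for 8 members and by 4-fold for 0. rcd-1, the worm relative of a CCR4-NOT deadenylase subunit, had 78.2 and 266 normalised reads, beside 1.05 and 3.34 in wild type, 6.44 and 0 in eri-6 and 6.66 and 29.5 in the ADAR mutants. C34H4.1 had 184 and 443, beside 11.5 and 23.4 in wild type, 7.51 and 10.3 in eri-6 and 58.3 and 50.9 in the ADAR mutants. skr-3, of the Skp1-related family of ubiquitin ligase parts, had 437 and 497, beside 44.9 and 38.5 in wild type, 129.8 and 106 in eri-6 and 49.1 and 25.4 in the ADAR mutants. The others were R10E8.3, taf-11.1, M163.12, Y55F3C.13 and kqt-2. The counterpart, triple mutant libraries at least 2-fold below all others, held for 0 members. For members near 0 in eri-6, such as linc-41, reads + 1 left little room for it. The genes were chosen with the triple mutant contrast at hand, so both counts only describe the selection. The triple mutant values cover the members alone, so no share over all genes can be set beside them.

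Agreement between the 2 adr-1;adr-2 libraries was uneven, and these are different strains. On reads + 1, 54 of the 248 higher members tested were at least 4-fold above both wild-type libraries in both strains, as were 0.617% of the 23975 genes tested. Another 12 passed in BB4 with BB21 within 2-fold (0.997% of all genes), and 8 passed in BB21 with BB4 within 2-fold (1.5%). The wild-type libraries are those of the selection, so nothing is read from these shares. Y105C5A.24 had 6583 and 26.8 normalised reads in BB4 and BB21, 8781 and 9285 in the triple mutant and 75.3 and 85.3 in wild type. gst-27, a glutathione S-transferase gene, had 115 and 5.36 in BB4 and BB21 and 177 and 221 in the triple mutant, against 1.05 and 6.69. F41C6.7 had 842 and 14.7 and 429.6 and 201, against 12.5 and 16.7. BB4 carries the same adr-1 and adr-2 alleles as the triple mutant, but strain and replicate number cannot be told apart here. zig-12 was high in replicate 1 of all 3 mutants (259 and 4.49 in the triple mutant, 287 and 5.36 in adr-1;adr-2 and 358 and 2.95 in eri-6) and near 5.23 and 3.34 in wild type, so its libraries overlap.

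The largest losses were shared with eri-6. linc-41, an intergenic non-coding RNA on chromosome IV, positions 4241224 to 4241765, had 1.59 and 1.12 normalised reads in the triple mutant against 1576 and 2039.9 in wild type, a difference of -9.58. The adr-1;adr-2 libraries had 873 and 1271, and those of eri-6 3.22 and 1.48. linc-17 had 3.17 and 2.24 against 1130.0 and 1871 (difference -8.63), with 5.36 and 22.1 in eri-6. The pseudogene F56D6.16 had 16.4 and 15.7 against 5799 and 4494 (difference -8.23), with 16.1 and 19.2 in eri-6. The triple mutant and eri-6 ranges overlap at linc-41 and F56D6.16, while at linc-17 both eri-6 libraries lie above both triple mutant libraries. In all these genes the adr-1;adr-2 libraries lie far above both, near wild type. linc-22 was more abundant, with 1262 and 1767 against 105529 and 112361 (difference -6.19), beside 59725 and 209627 in adr-1;adr-2 but 1099 and 2188 in eri-6. The microRNA locus mir-260 had 28 and 40.4 against 1187 and 2734, beside 22.5 and 75.3 in eri-6. The member with the most small RNA, pmp-5, a peroxisomal ABC transporter gene, was lower by a smaller margin, with 145498 and 93463 against 430792 and 198032, beside 155299 and 184926 in adr-1;adr-2 and 240331 and 122731 in eri-6. Replicate 2 of eri-6 lies within the triple mutant range, and the other single-pathway libraries lie above it and below the higher wild-type library.

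Of 31 measured genes that are known templates of ERGO-1 siRNAs, 10 were members and all 10 were lower, with a median of -5.96. K02E2.6 had 56.5 and 119 against 11744 and 15796 (difference -7.36), F55C9.3 had 7.4 and 22.4 against 1902 and 1792 (-7.04) and C44B11.6 had 258 and 269 against 14982 and 16220.2 (-5.88). The rest of the list among the members were F55C9.5 (-6.97), Y17D7B.4 (-6.26), Y116F11A.1 (-6.03), ZK402.3 (-5.27), F14F7.5 (-4.85), E01G4.7 (-4.47) and K02E2.11 (-3.20). Over the 30 list genes tested in full, eri-6 against adr-1;adr-2 had a median of -5.53, and 22 passed DESeq2 (adjusted p under 0.05) in eri-6 as lower and 0 as higher, beside 1.34% and 0.0906% of all genes. limma called 0 of all genes in that comparison. Templates with equally large losses in eri-6, such as W04B5.1 (-8.02 against wild type, limma log2 difference), are not in the 381.

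Other losses were shared with adr-1;adr-2. F15D4.5, on chromosome II, positions 13245376 to 13247774, had 2353 and 2501 normalised reads in the triple mutant against 16609 and 48841 in wild type, beside 2169.8 and 2080.2 in adr-1;adr-2 and 18358 and 36448 in eri-6. The triple mutant lies with adr-1;adr-2, and eri-6 lies within the wild-type range. Inside this gene are the piRNA loci 21ur-10492 (46 and 30.3 against 523 and 1660.3) and 21ur-10687 (16.4 and 35.9 against 332 and 955), so these 3 members are not independent. fbxa-192, an F-box gene, had 3444 and 6181 against 10915 and 16342, with 1403 and 1467 in adr-1;adr-2. Its triple mutant libraries lie above those of adr-1;adr-2 and below wild type. C38D9.2 had 1035 and 1959.8 against 5119.9 and 7904, with 1205 and 1041 in adr-1;adr-2. adr-1 itself, the one mutated gene in the table, had 88.8 and 176 against 385 and 734, with 79.9 and 100.5 in adr-1;adr-2 and 383 and 526 in eri-6. adr-2, eri-6, eri-7, drh-1 and nrde-3 are not among the members, nor is any gene of the lists of ERI complex, mutator and polymerase, Argonaute, nuclear RNAi or antiviral factors.

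**Figure D2:**
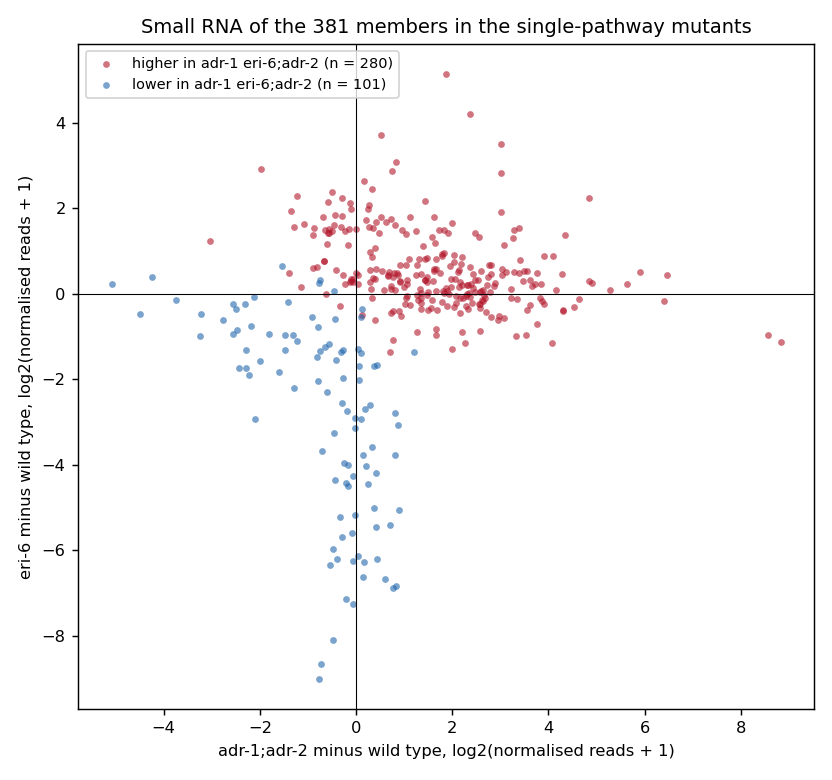
Small RNA difference of each of the 381 members in adr-1;adr-2 (x axis) and in eri-6 (y axis) against wild type, in log2(normalised reads + 1), coloured by the direction in adr-1 eri-6;adr-2. Both axes share the wild-type libraries; the red points spread to the right along x and the blue points spread down along y, from 8.83 for F39E9.1 on x to -8.99 for linc-41 on y.

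Read across the full tables, the single-pathway contrasts gave 0 members past limma's adjusted p of 0.05, with 0 of 23975 genes called in adr-1;adr-2 and 0 of 23380 in eri-6. At an unadjusted p under 0.05 limma held 74 members as higher and 15 as lower of the 349 tested in adr-1;adr-2, beside 0.98% and 0.371% of genes. In eri-6 it held 15 as higher and 46 as lower of 300, beside 0.265% and 0.749%. edgeR on recovered reads called 0 members in either. DESeq2 on the recovered reads called 28 of 357 members higher and 4 lower in adr-1;adr-2, beside 0.424% and 0.0367% of genes. In eri-6 it called 3 of 297 higher and 35 lower, beside 0.0631% and 0.526%. These contrasts share the wild-type libraries with the contrast by which the genes were chosen, so no share is read as a result. On simulated data both groups were given the same gap between replicates 1 and 2, averaged from the observed libraries, and a fixed dispersion. Without such a gap limma and edgeR recovered 100 of 100 genes changed 64-fold in each comparison. With the gap both recovered 0 of 100. DESeq2 recovered 91 to 95 of these, but only 12 to 16 of 100 changed 8-fold. In the data the gaps correlated between groups at only 0.598 to 0.701, and false calls in the simulation are not given. The simulation therefore does not decide between the tools. By the 4-fold rule on every library, chosen after the data were seen, 54 members were higher and 5 lower in adr-1;adr-2, beside 0.617% and 0.0751% of genes, and 6 were higher and 39 lower in eri-6, beside 0.0984% and 0.672%. The 5 were F15D4.5, 21ur-10492, 21ur-10687, fbxa-192 and C38D9.2, and the 6 were T28F2.1, pals-27, C18B2.4, C55C3.7, F25H9.2 and F56A12.5.

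The comparison of eri-6 with adr-1;adr-2 holds neither wild-type nor triple mutant libraries. The scaling behind limma, the medians and the 4-fold rule was set over 6 libraries, wild type included. The criterion of the choice is not stated, so whether the eri-6 and adr-1;adr-2 libraries played a part in it is not known. limma called 0 members and 0 of 23770 genes, and edgeR called 0 members. Of the 357 members tested by limma, 35 were higher and 136 lower at an unadjusted p under 0.05, beside 0.534% and 2.05% of genes. DESeq2 called 82 of 359 members lower in eri-6 and 7 higher, beside 1.34% and 0.0906% of 24273 genes. By the 4-fold rule on every library 95 members were lower in eri-6 and 11 higher, beside 1.31% and 0.16% of genes. Of the 82 called by DESeq2, 42 were members with more small RNA in the triple mutant and 40 were members with less. The median difference was -1.36 over the 259 higher members tested and -2.15 over the 98 lower members, beside 0.06 over all 23770 genes. The blocks differed: higher members had -1.78 in the first (n = 180) and -0.30 in the second (n = 79). In that second block 38 higher members lay above 0 and 41 below. Lower members had -1.54 in the first block and -2.75 in the second. The largest difference was at F39E9.1, -10.04 (SE 0.76) with a limma adjusted p of 0.0668 and a DESeq2 adjusted p of 1.35e-24. linc-41 differed by -8.35 (SE 0.73; adjusted p 0.0668 in limma and 2.11e-11 in DESeq2) and was also lower in eri-6, although it is a loss in the triple mutant and F39E9.1 a gain. In the other direction 21ur-10492 differed by 5.24 (SE 0.71; 0.125 in limma and 4.83e-07 in DESeq2). The 6 others that DESeq2 called higher in eri-6 were 21ur-10687, F15D4.5, C18B2.4, C55C3.7, fbxa-170 and T28F2.1.

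**Figure D3:**
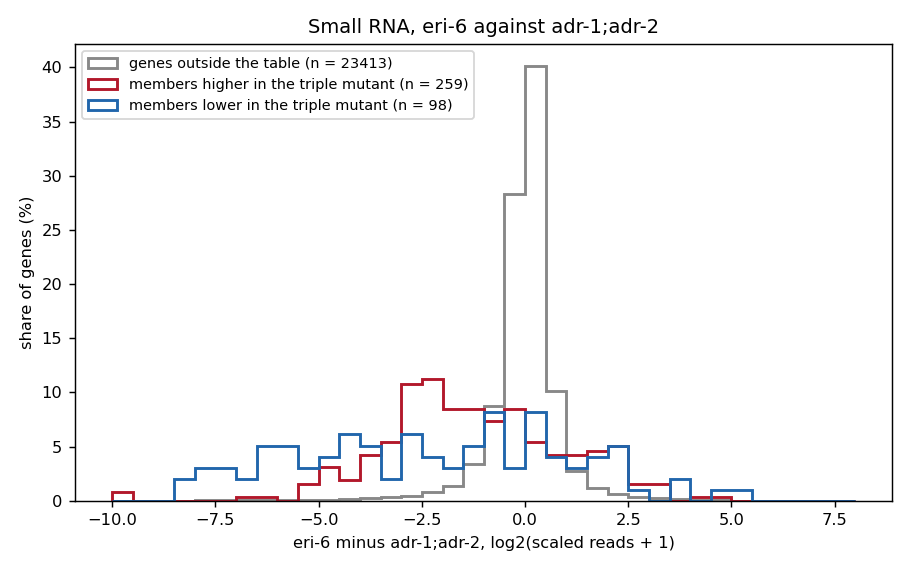
Share of genes (y axis, %) by the small RNA difference of eri-6 minus adr-1;adr-2 (x axis, log2 of scaled reads + 1, bins of 0.5) for 23413 genes outside the table, 259 members higher and 98 members lower in the triple mutant; values under -10 are placed in the first bin. The genes outside the table stand in a narrow peak near 0, with a median of 0.06. Both member lines are broad and shifted to negative values, with medians of -1.36 and -2.15. Higher members of the second block alone had a median of -0.30.

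Several families had members that were higher. Of 72 measured histone genes 7 were members and all 7 were higher: his-41 had 279.6 and 1907 against 126 and 167 (difference 2.32), his-9 had 111 and 309.8 against 44.9 and 60.2 (1.81), and his-16 had 49.1 and 216 against 39.7 and 38.5 (1.38). Replicate 1 of the triple mutant was the lower library for all 7, and histone genes are near-identical copies between which reads can be split. Over the 71 histone genes tested, eri-6 against adr-1;adr-2 had a median of -1.30, and DESeq2 called 13 lower and 0 higher, beside 1.34% and 0.0906% of all genes, while limma called 0 of all genes there. Among all members 73.5% were higher, so a family's count by direction is read against that share. C-type lectins gave 10 higher and 2 lower members of 265 genes, led by clec-41 (784 and 899 against 114 and 21.7) and clec-36 (30.7 and 44.9 against 1.05 and 1.67). clec-126 was higher in the triple mutant (44.9 and 141 against 5.23 and 8.36) and in eri-6 (52.6 and 26.6), with 8.33 and 0 in adr-1;adr-2. The 4 nuclear hormone receptor members, nhr-92 (3.02), nhr-68 (2.68), nhr-114 (2.27) and nhr-170 (2.16), were all higher, as were math-26 (3.39), math-3 (2.78) and bath-39 (2.46). Of the 5 linc members linc-169 was higher (1.79) and 4 were lower. F-box genes gave 1 higher member, fbxa-170 (1.75), and 3 lower. Single members of their families were col-62 (collagen, 4.64), hsp-17 (heat shock, 2.94), srh-237 (chemoreceptor, 3.06) and cyp-33C2 (cytochrome P450, -1.57).

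Of 20 intestine markers 6 were members and all were higher: the yolk protein genes vit-3 (55 and 143 against 7.32 and 28.4), vit-6 (71.3 and 376 against 25.1 and 50.2), vit-4 (2.11), vit-2 (1.88) and vit-5 (1.64), and the peptide transporter gene pept-1 (1.61). Replicate 2 of the triple mutant was above replicate 1 for all 6. The vit genes are close copies, so their reads may be shared. The muscle marker unc-54, a myosin heavy chain, was lower (22.7 and 32.6 against 350.2 and 80.3), and 0 markers of sperm, germline, neuron or hypodermis were members.

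Some members lay near each other along the genome. Of 377 members with coordinates 117 (31.0%) had another member within 10 kb, in 53 runs, of which 33 held only higher, 14 only lower and 6 both kinds. The share of other genes with such neighbours was not computed, and 73.5% of all members were higher, so these counts only describe the table. The run on chromosome I from 12938555 to 12954006 holds acox-1.1 (4.87), acox-1.2 (2.35), acox-1.3 (1.83) and acox-1.4 (2.52), paralogous oxidases between which reads may be shared. pmp-2 and pmp-1, also peroxisomal, form a pair with 322 and 207 against 8.36 and 18.4 at pmp-1. ugt-47 (707 and 700.4 against 78.4 and 25.1), ugt-17 (206 and 282 against 11.5 and 10.0) and C08B6.11 (3.81) form a run of higher genes, the first pair being glucuronosyltransferases. K02E2.6, K02E2.11 and K02E2.13 form a run of lower genes, in which K02E2.13 overlaps K02E2.11. On chromosome I from 3628246 to 3647082 the directions are mixed. There jmjc-1, a gene with a JmjC domain, was lower (754 and 1148 against 4352 and 10973; 629.8 and 1072 in eri-6), while cah-6 (2.29), T28F2.1 (4.92) and ccb-1 (1.79) were higher. The mixed run on X joins slo-2, a potassium channel gene that was lower (67.6 and 76.3 against 289.5 and 361), with the peroxin gene prx-12 (2.41) and the stress kinase gene pek-1 (1.95), which were higher. The runs math-26, math-3 and F36H5.14 (3.29) and his-16, his-15 (1.78) and his-9 held only higher genes, as did C34H4.1, Y41D4B.18 and hpo-6 (2.33) and the pair K09H9.8 (2.57) and K09H9.5 (1.77). Overlapping genes, such as math-26 and math-3, can share reads.

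Ranked by the mean log2 difference, and not by the ratio of group means, a few members lay nearest to no change. On the higher side these were T20F7.5 (1.33), cest-25 (1.37) and rgs-4 (1.37), none of which overlapped wild type. On the lower side ubxn-5 had 7.4 and 4.49 against 92 and 0, T22B3.3 had 79.3 and 13.5 against 433 and 8.36, and nspa-5 had 14.8 and 3.37 against 108 and 1.67. In all 3 the transgenic wild-type replicate 1 was high and N2 was low, and without replicate 1 the mutant was the higher group. lin-14, a gene of developmental timing, had the same pattern (97.8 and 93.2 against 732 and 85.3).

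In total RNA of the triple mutant, where the authors deposited 1 FPKM per genotype with lower and upper bounds whose level is not given, 136 of the 333 members with a value were lower and 69 higher than wild type with bounds that did not overlap, beside 5.9% and 7.24% of 35908 genes, or 16.8% and 19.9% of the 12493 genes of at least 1 FPKM. Of the members with more small RNA, 113 had lower and 43 higher total RNA. Of those with less small RNA, 26 had higher and 23 lower total RNA. In whole animals, fewer cells of a type and less RNA per cell cannot be told apart. The largest differences upward included C38D9.2, with 21.9 FPKM (bounds 16.5 to 27.4) in the triple mutant and 0.258 (0 to 0.648) in wild type, 5 in adr-1;adr-2 and 0.343 in eri-6. F15D4.5 had 20.4 (15.3 to 25.5) against 0.96 (0.47 to 1.45), with 10.5 and 0.797 in adr-1;adr-2 and eri-6. Both of these genes had less small RNA in adr-1;adr-2 and in the triple mutant. T05E12.10 had 20.9 FPKM against 0.854, with 19.45 in eri-6, and F19B10.10 had 47.7 against 2.09, with 10.3 and 12.8 in the single-pathway mutants. Small RNA in the triple mutant was lower at T05E12.10 but higher at F19B10.10 (difference 1.81). The others of the 6 highest were Y39G8B.2 (11.7 against 0.545) and F33H12.7 (16.2 against 1.36), whose small RNA was also higher.

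At the other end of total RNA, cyp-33C2 had 0.0645 FPKM (bounds 0 to 0.231) in the triple mutant, 0.109 in adr-1;adr-2, 0.103 in eri-6 and 21.2 (15.8 to 26.7) in wild type. lbp-8, a lipid-binding protein gene, had 1.58 (0.0509 to 3.1) against 39.8 (27.6 to 52.1), with 4.58 and 14.7 in the single-pathway mutants. asah-1, an acid ceramidase gene, had 6.44 against 82.1, and asp-6, an aspartyl protease gene, had 86 against 1011. In lbp-8, asah-1 and asp-6 the order was the same: wild type, eri-6, adr-1;adr-2 and then the triple mutant. The snoRNA C06A1.8 had 6103 against 72049, and Y17D7B.10 was listed at 0 in adr-1;adr-2 and the triple mutant, with 484 in eri-6 and 1560.1 in wild type. Intestine markers moved with these low values: 14 of 19 were lower and 1 higher by their bounds. Their summed FPKM was 9586 in wild type, 2247 in adr-1;adr-2, 2819 in eri-6 and 1248 in the triple mutant. Germline markers summed to 388, 1499, 673.2 and 1340.0 in the same order, with 15 of 19 higher and 1 lower. Sperm markers summed to 114.1, 332.9, 317 and 365.1, with 17 of 34 higher and 0 lower. Muscle markers summed to 4650, 2298, 3665 and 2035, with 0 of 14 higher and 4 lower. Of 8 hypodermis markers 2 were higher and 0 lower, and of 13 neuron markers 0 were either. Over all genes 7.24% were higher and 5.9% lower, or 19.9% and 16.8% of those of at least 1 FPKM. The part of these tissues in the members' total RNA was not tested.

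**Figure D4:**
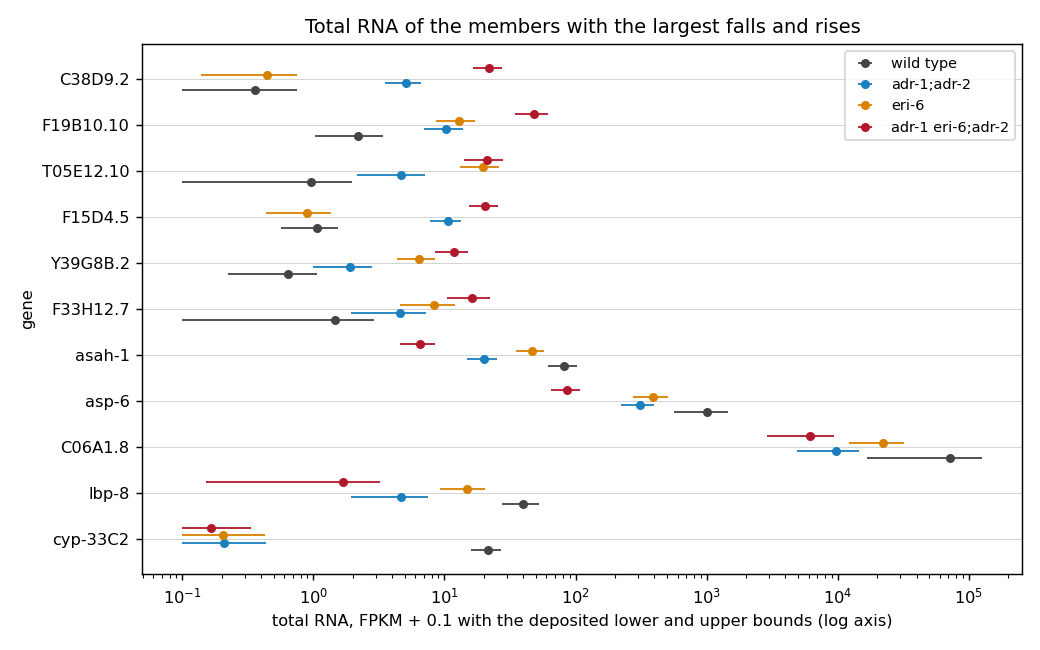
Total RNA of the members with the lowest (lower 5) and highest (upper 6) differences in adr-1 eri-6;adr-2, as FPKM + 0.1 (log axis) in the 4 genotypes, with the deposited lower and upper bounds as bars; Y17D7B.10, listed at 0 in 2 genotypes, is left out. The red triple mutant points lie at the high end in the upper 6, with eri-6 beside them at T05E12.10, and at the low end in the lower 5, next to adr-1;adr-2 and eri-6 at cyp-33C2.

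In the single-pathway mutants, members with non-overlapping bounds against wild type numbered 36 higher and 102 lower in adr-1;adr-2, beside 7.1% and 4.78% of genes, and 45 higher and 55 lower in eri-6, beside 4.11% and 2.36%. Of the 315 members at 1 FPKM or more, 36 were higher and 101 lower in adr-1;adr-2 (19.7% and 13.7% of such genes), and 45 and 54 in eri-6 (11.5% and 6.68%). These share wild type with the triple mutant contrast. Between adr-1;adr-2 and eri-6, which share nothing with it, 71 members were lower and 17 higher in adr-1;adr-2, beside 2.93% and 3.47% of genes, and of the members at 1 FPKM or more 71 and 17 of 315, beside 8.42% and 9.91%. The members with more small RNA gave 41 of the 71 and those with less gave 30. Median differences of adr-1;adr-2 minus eri-6 were -0.44 for the 240 members with more small RNA and -0.67 for the 75 with less, beside -0.02 over 12493 genes. Members with more small RNA had -0.52 in the first block but 0.14 in the second. Those with less had -0.97 and -0.36. E01G4.7, with less small RNA in eri-6 and the triple mutant, had 7.59 FPKM in adr-1;adr-2, 36.5 in eri-6, 24 in the triple mutant and 5.09 in wild type. linc-17 had 1.21, 30.0, 18.4 and 2.75 in the same order. In both genes the 2 genotypes with less small RNA had more total RNA. R12C12.7, with more small RNA in adr-1;adr-2 and the triple mutant, had 76.7, 172, 63.5 and 197. K02E2.11 went another way, with 21.8, 178, 47.8 and 203. Its total RNA was low where the ADARs were missing, although its small RNA was low where eri-6 was missing. In triple mutant total RNA 2 of 29 genes of the ERGO-1 list were higher and 2 lower than wild type by bounds. Of 141 linc genes 3 were higher and 19 lower, beside 7.24% and 5.9% of all genes. E01G4.7 and linc-17 therefore do not stand for their lists.

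The mRNA libraries are 1 per condition, so their differences have no replicate check. On control RNAi 24 of 331 members were at least 4-fold higher on FPKM + 1 in the triple mutant and 9 lower, beside 2.44% and 1.23% of 17851 genes. All 12 higher ones among the members with more small RNA lay in the second block, and all 6 lower ones in the first. F15D4.5 had 51.3 FPKM in the triple mutant and 1.58 in wild type, C38D9.2 had 21.9 and 0.243, and linc-17 had 32.5 and 0.482. F55C9.3 had 12.7 and 0.295, and its neighbour F55C9.5 had 15.1 and 0.567. These 5 had less small RNA and more mRNA in the mutant. Reads of F55C9.3 and F55C9.5, which are similar to each other, may be shared. Over members with more small RNA in the first block the median difference was -0.49 (n = 171), and 132 of them lay below 0. In the second block the medians were 0.67 for members with more small RNA and 1.16 for those with less, beside -0.04 over 12820 genes outside the table.

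The triple mutant was also fed RNAi bacteria labelled drh-1 or nrde-3. nrde-3 itself had 8.079 FPKM on nrde-3 RNAi and 15.37 on control in the triple mutant, and 5.262 and 5.755 in wild type. In the libraries labelled drh-1 RNAi nrde-3 had 5.467, beside 14.15 on control, in the triple mutant, and 4.429 and 5.304 in wild type. Its lower level in the triple mutant was thus not particular to nrde-3 RNAi, and knockdown was not tested. drh-1 had 65.39 FPKM in the triple mutant library labelled drh-1 RNAi and 19.02 on control, and 32.32 and 14.27 in wild type. The target was thus higher, not lower, in both libraries labelled drh-1 RNAi, so these are called only by their label. On nrde-3 RNAi in the triple mutant the 171 first-block members with more small RNA had a median of 0.71 over control, with 154 above 0, beside 0.07 and 53.7% for genes outside the table. In wild type the same members had a median of 0.07, beside -0.05. The 34 first-block members with less small RNA had 0.81 in the triple mutant and 0.13 in wild type. Second-block members had 0.00 and 0.25. In the triple mutant library labelled drh-1 RNAi the medians were 0.58 and 0.52 in the first block and -0.36 and 0.07 in the second, beside 0.00 outside the table. In wild type they were 0.09 and -0.05 in the first block and -0.26 and -0.08 in the second, beside -0.15 outside the table. The triple mutant control library enters all of the triple mutant differences, so they are not independent of the control contrast.

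**Figure D5:**
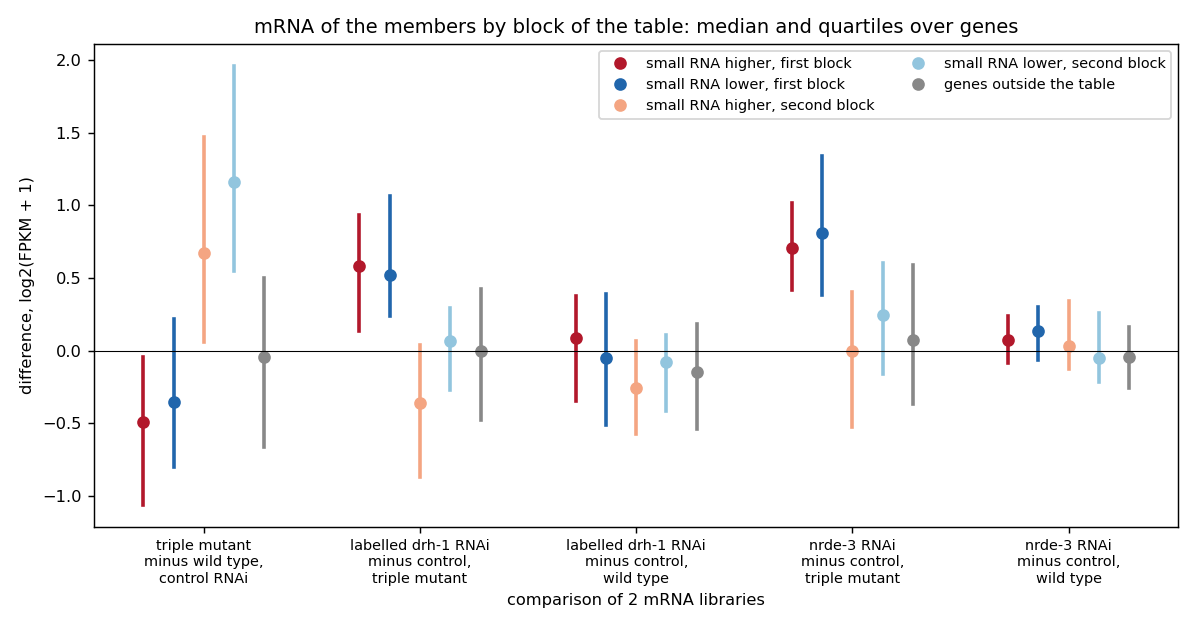
Median (point) and quartiles (bar) over genes of the difference in log2(FPKM + 1) between 2 mRNA libraries (y axis) for 5 comparisons (x axis), for the members by block of the table and direction of small RNA, and for genes outside the table in grey. In the triple mutant the first-block members (dark red and dark blue) lie at -0.49 and -0.36 against wild type and at 0.71 and 0.81 on nrde-3 RNAi, while in wild type nrde-3 RNAi leaves them at 0.07 and 0.13.

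R12C12.7 had 107 FPKM in wild type and 36.3 in the triple mutant on control, and 106 and 92.6 on nrde-3 RNAi. T05E12.6 had 81.2 and 31 on control and 99.7 and 64.6 on nrde-3 RNAi, and gst-27 had 120.3 and 43.9, then 107 and 115. In all 3 the triple mutant was below wild type on control and nearer to it on nrde-3 RNAi. F15D4.5, with 51.3 and 54.7 in the triple mutant, stayed high on both. Past 4-fold on nrde-3 RNAi were 6 of 332 members, all higher, beside 0.829% of genes higher and 1.29% lower. 5 of the 6 are not protein coding and are 78 to 218 nt long (C05D9.12, C18C4.17, CD4.18, C06A1.8 and M163.12), and the sixth, Y17D7B.10, was listed at 0 on control and at 896 FPKM on nrde-3 RNAi. In wild type Y17D7B.10 went the other way, from 812 FPKM on control to a listing at 0 on nrde-3 RNAi. C05D9.12 had 52.8 and 245 FPKM, and C18C4.17 had 2.35 and 26.8. In the library labelled drh-1 RNAi 4 of 330 members were past 4-fold higher and 5 lower, beside 0.799% and 2.2%. The higher ones were CD4.18, C06A1.8 and nspa-5, listed at 0 on control, and C18C4.17 (2.17 and 24.6 FPKM). In wild type 1 of 331 members was past 4-fold higher and 3 lower in the library labelled drh-1 RNAi, beside 0.778% and 0.86% of genes, and 0 of 327 were higher and 3 lower on nrde-3 RNAi, beside 1.01% and 0.842%. The lower ones in the triple mutant were npa-1, a lipid-binding polyprotein gene (50.4 and 7.99 FPKM), C44C10.13 (11 and 1.26), lin-14, M04C3.1 and AC3.5.

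Tissue markers moved in these libraries as well. Summed intestine markers were 11940 FPKM in wild type and 6644 in the triple mutant on control, and 13510 and 12270 on nrde-3 RNAi. In the drh-1 table they were 11020 and 6096 on control and 30150 and 17000 in the libraries labelled drh-1 RNAi. Summed sperm markers were 28.76 FPKM in wild type and 284.9 in the triple mutant on control, and 20.73 and 138.7 on nrde-3 RNAi, with 33 of 34 above 0 in the triple mutant on control. Germline markers summed to 4727 and 7303 on control and to 3712 and 4153 on nrde-3 RNAi. Among the members the yolk gene vit-2 had 2526 and 1614 on control and 2954 and 3057 on nrde-3 RNAi. The part of tissue composition in the members' mRNA differences was not tested.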

How the data were processed

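Small RNA, total RNA and mRNA of whole worms were analysed from 22 samples. The submitters' processing notes name build WBcel235 and, with no order or version, TopHat2, Cufflinks, Cuffdiff, BWA, DESeq2, Trim Galore and featureCounts. The deposited small RNA tables hold read counts divided by size factors, a normalised signal, from which whole reads were recovered for 100% of values (tolerance 0.01 reads). The deposited total RNA and mRNA values are FPKM from the authors, with depth not known, and the mRNA control libraries were scaled separately in the drh-1 and nrde-3 tables (the nrde-3 table is used for control values unless named).

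Genes with a mean of at least 10 were tested with limma 3.58.1 on log2(value + 1), with Benjamini-Hochberg adjustment at 0.05 over the whole table. edgeR 4.0.16 (quasi-likelihood) and DESeq2 1.42.0 on the recovered reads were alternatives. eri-6 was compared with adr-1;adr-2 by limma on reads TMM-scaled over 6 libraries, wild type included. Total RNA was called where bounds did not overlap, and mRNA at 4-fold on FPKM + 1. Medians of total RNA and mRNA are on the log2(FPKM + 1) scale, over genes of at least 1 FPKM in any library or genotype. The scripts were tested on simulated data.

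The members and gene lists were chosen with earlier results of these data known. Named genes are the 15 highest and 10 lowest differences, the members nearest no change, list and family members, those in runs of neighbours, and the largest differences in total RNA and mRNA. Others named were chosen after their values were seen. Of the members 361 were named from the reference, 16 from the deposited tables and 4 have no name.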

Additional observations from a re-analysis of the deposited data

Results flagged for a closer look

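Some members differed past 4-fold in opposite directions on RNAi in the triple mutant and in wild type, with 1 library each, and the difference between the genotypes was not tested. lin-14 differed by -2.279 in log2(FPKM + 1) in the triple mutant library labelled drh-1 RNAi against control, and by 4.23 in wild type. C18C4.17, an ncRNA, differed by 3.017 in the triple mutant and -2.39 in wild type in the libraries labelled drh-1 RNAi. On nrde-3 RNAi it differed by 3.05 in the triple mutant and -2.39 in wild type. Another 2 members had such swings with libraries listed at 0, so no fold is given. Y17D7B.10 was listed at 0 on control and at 896 FPKM on nrde-3 RNAi in the triple mutant, and at 812 and 0 in wild type. C06A1.8 was listed at 0 on control and at 7.78 FPKM in the library labelled drh-1 RNAi in the triple mutant, and at 5.78 and 0 in wild type.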

How the results depend on the processing

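limma and edgeR called 0 members in each small RNA comparison, while DESeq2 called 28 higher and 4 lower in adr-1;adr-2, 3 and 35 in eri-6, and 7 and 82 in eri-6 against adr-1;adr-2. The 4-fold rule on every library, chosen after seeing the data, gave 54 and 5, then 6 and 39, then 11 and 95. A pseudocount of 5 gave 2 higher in adr-1;adr-2, a fit over 6 libraries gave 5 lower in eri-6 and 5 lower against adr-1;adr-2, and no filter on low values gave 6 lower there. Leaving out 1 replicate at a time gave 2 to 9 higher and 0 to 3 lower in adr-1;adr-2, 0 to 3 and 11 to 25 in eri-6, and 1 to 5 and 16 to 48 in eri-6 against adr-1;adr-2. With a replicate block limma gave 1 higher and 29 lower in eri-6, 2 and 35 in eri-6 against adr-1;adr-2, and edgeR with the block, also added after seeing the data, gave 1 and 23 there and 0 and 0 in eri-6 against wild type. Differences between replicates 1 and 2 correlated across 23985 genes at 0.598 for adr-1;adr-2 with wild type, 0.679 for eri-6 with wild type and 0.701 for eri-6 with adr-1;adr-2, but with 2 pairs the samples share only a number. A fold of at least 2 beside the bounds left 33 of 55 members lower in total RNA of eri-6. In mRNA, a fold of 2 gave 54 higher and 58 lower in the triple mutant, 48 and 25 in the library labelled drh-1 RNAi, and 70 and 7 on nrde-3 RNAi. A pseudocount of 0.1 gave 44 higher in the triple mutant, 16 lower in the library labelled drh-1 RNAi and 1 lower on nrde-3 RNAi. Shares over all genes are not given for these other settings, so their counts are not read as results about the members. The causes of the shifts were not tested. Of 1188 values for 119 named members under other settings, 1000 moved by less than the replicate spread. Part of this was fixed in advance. The replicate block and the filter at a mean of 10 return the main difference, which is itself the mean of the differences within replicates 1 and 2. The count is therefore not read as stability. Signs changed for 5 members. Without wild-type replicate 1, T22B3.3 differed by 1.864, nspa-5 by 1.636, ubxn-5 by 2.763 and lin-14 by 0.161. Within replicate 2 the values were 0.628, 0.709, 2.457 and 0.126 in the same order. T22B3.3 differed by 0.333 without triple mutant replicate 2, ubxn-5 by 0.951 with a pseudocount of 0.1, and fbxa-54 by 0.0596 within replicate 1. With 2 libraries a group, depth and replicate spread limit every call.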
